A study of Mus musculus with 8 samples.

Results

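The proteasome genes described here are the 3 immunoproteasome catalytic subunits Psmb8, Psmb9 and Psmb10, the activator subunits Psme1 and Psme2, and their constitutive counterparts Psmb5, Psmb6, Psmb7 and Psme3. They were chosen by name and make up 9 of the 20408 genes listed in the expression tables of tumour endothelial cells (ECs). All 9 were detected in all 8 libraries and all 9 passed the filter on low values, among 10424 genes tested. Levels were read in the 7159 cells, of 8204 in all, that had at least 1 UMI (unique molecular identifier, the tag that marks a captured transcript) of the endothelial gene Pecam1, which encodes CD31.

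The proteasome is the barrel-shaped protease that degrades ubiquitin-tagged proteins. Its 20S core carries 3 kinds of active site, and in the constitutive form these sit on Psmb6 (caspase-like), Psmb7 (trypsin-like) and Psmb5 (chymotrypsin-like). Interferons induce Psmb9, Psmb10 and Psmb8, which take the places of Psmb6, Psmb7 and Psmb5 in newly built cores and change which peptides are cut for display on MHC class I. Psme1 and Psme2 encode the PA28 alpha and beta subunits of an interferon-inducible ring that caps the core, whereas Psme3 encodes PA28 gamma, a nuclear activator. ECs line blood vessels and present antigen on class I.

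ECs were sorted for CD31 from breast tumours of mice of the MMTV-PyMT model, in which the mouse mammary tumour virus promoter drives the polyoma middle T oncogene in mammary epithelium and tumours arise spontaneously, and from tumours grown after cells of such tumours, expanded briefly in culture, had been placed in the mammary fat pad of FVB females. Each model received PBS or cGAMP, a cyclic dinucleotide that activates the innate sensor STING, by injection into the tumour, and by the study's methods the cells were taken 3 h later from 2 mice per group. There are 2 libraries in each of the 4 groups, called below by model and injection (spontaneous PBS, for example), all from adult animals. The labels give the strain as c57bl/6 and the methods name FVB for both models. No source says that a library is 1 mouse, so the p-values measure the spread between libraries, which may be technical in part.

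The inducible and constitutive genes lie in separate places. On GRCm38, Psmb8 (chr17:34197721-34201454, plus strand) and Psmb9 (chr17:34181987-34187764, minus strand) flank the peptide transporter gene Tap1 (chr17:34187553-34197225, plus strand) in the MHC, and the 5′ ends of Psmb9 and Tap1 overlap by 212 bases on opposite strands. Psmb10 is on chr8:105935735-105938444. Psme1 (chr14:55578123-55581529) and Psme2 (chr14:55587441-55591113) are neighbours, with Psmb5 elsewhere on the same chromosome (chr14:54614119-54618022). Psmb6 (chr11:70525367-70527858), Psme3 (chr11:101316213-101323537) and Psmb7 (chr2:38588036-38644087) lie elsewhere. Psme2 has a near copy, Psme2b, and Psmb5, Psmb6 and Psmb7 have processed pseudogenes, so reads shared with these copies make their counts less certain. Promoter windows of RefSeq (GRCm38.p6), from 250 bases before to 50 bases after the start site, were at hand for 8 members, all but Psmb7. They were searched on both strands for an interferon-stimulated response element core, GAAANNGAAA, and for the gamma-activated sequence, TTCNNNGAA. Of 32851 promoters, 3.44% held the first and 8.30% the second. Among the members the first was found in Psme1 alone, 9 bases after the start, and the second in Psmb8 alone, 97 bases before it. This start is that of RefSeq, whereas the gene spans above are those of GENCODE. The windows of Psmb8, Psmb9 and Psme1 lie wholly inside those spans, so neither match is upstream of the 5′ end of its span. A match is a description of letters and no evidence of binding, and no match says only that these letters are not in this window. Windows are printed for the members that carry a match and for Psmb5 as a constitutive gene with neither motif. A window is also printed for Psmb9, where it overlaps the gene span of Tap1 on the other strand. All are written 5′ to 3′ with the matches in capitals. They span chr17:34197945-34198244 (plus) for Psmb8, chr17:34187281-34187580 (minus) for Psmb9, chr14:55578244-55578543 (plus) for Psme1 and chr14:54617946-54618245 (minus) for Psmb5.
Psmb8: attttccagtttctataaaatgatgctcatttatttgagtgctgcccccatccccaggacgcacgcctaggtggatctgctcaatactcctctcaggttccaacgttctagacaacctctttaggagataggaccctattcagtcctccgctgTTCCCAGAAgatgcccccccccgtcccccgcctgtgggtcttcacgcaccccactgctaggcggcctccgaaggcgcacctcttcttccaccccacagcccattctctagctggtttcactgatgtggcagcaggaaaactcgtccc
Psmb9: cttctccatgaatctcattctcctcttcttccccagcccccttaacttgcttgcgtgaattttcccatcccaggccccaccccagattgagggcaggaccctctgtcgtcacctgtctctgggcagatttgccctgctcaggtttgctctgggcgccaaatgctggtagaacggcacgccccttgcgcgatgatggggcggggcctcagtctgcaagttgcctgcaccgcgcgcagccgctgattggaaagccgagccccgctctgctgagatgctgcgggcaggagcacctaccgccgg
Psme1: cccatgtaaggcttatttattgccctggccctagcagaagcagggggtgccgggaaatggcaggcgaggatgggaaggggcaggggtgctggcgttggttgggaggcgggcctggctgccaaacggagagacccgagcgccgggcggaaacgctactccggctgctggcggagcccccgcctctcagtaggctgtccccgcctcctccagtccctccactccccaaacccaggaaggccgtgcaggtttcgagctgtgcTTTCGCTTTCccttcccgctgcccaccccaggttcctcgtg
Psmb5: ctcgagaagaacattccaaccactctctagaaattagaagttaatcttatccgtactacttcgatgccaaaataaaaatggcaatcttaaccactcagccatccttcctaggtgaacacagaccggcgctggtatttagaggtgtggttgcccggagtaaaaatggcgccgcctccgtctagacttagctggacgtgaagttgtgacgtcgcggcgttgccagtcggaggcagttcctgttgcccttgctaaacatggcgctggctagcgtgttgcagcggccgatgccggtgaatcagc

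The libraries held 601 to 1529 Pecam1-positive cells each. Their median depth was 9523 to 14707.5 UMIs per cell in 7 libraries and 3049 in replicate 1 of implanted cGAMP, where 37.9% of the cells had under 2000 UMIs. Across the series 7 cell barcodes occurred in more than 1 library. The 7 endothelial markers summed to between 4897 and 5898 mean CPM in every library. This sum includes Pecam1, at 1025 to 1264, whose presence was fixed by the choice of cells. The other markers of ECs were present in every library as well. Markers of other cell types were present although CD45-positive cells were gated out, none of them at 0 in any library. Their sums differed between groups and also between the libraries of a group. The 8 immune markers summed to 11.1 to 15.8 mean CPM in the PBS libraries, 25.1 to 35.2 in spontaneous cGAMP and 55.5 to 207 in implanted cGAMP. The 6 mural and fibroblast markers summed to 81.9 to 419 mean CPM in spontaneous PBS and 530 to 664 in spontaneous cGAMP. In implanted PBS and implanted cGAMP they summed to 81.5 to 112 and 130 to 220.1. The 6 epithelial markers summed to 84.3 to 147 in spontaneous PBS, 99.2 to 108 in spontaneous cGAMP and 47.1 to 62.3 in implanted PBS. In implanted cGAMP they summed to 343 in replicate 1, the shallow library, and to 49.7 in replicate 2. Without every cell that carried a UMI of Ptprc, Epcam, Pdgfrb or Col1a1, Psmb8 was higher after cGAMP by 2.42 log2 units in spontaneous and by 1.20 in implanted tumours, close to the 2.41 and 1.19 of all Pecam1-positive cells given below.

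After PBS the constitutive catalytic subunits of spontaneous tumours together exceeded those of the immunoproteasome. A member's level is given as mean CPM, its UMIs scaled to the same total in every cell (CPM, the usual expression unit) and averaged over the Pecam1-positive cells of a library. The 3′ chemistry counts each captured transcript 1 time whatever its length, but capture and mapping may differ between genes, which was not tested, so orders and ratios between genes are those of captured UMIs. In spontaneous PBS, Psme1 was highest (242 mean CPM), followed by Psmb6 (211), Psmb5 (208), Psmb8 (182), Psme2 (137), Psmb7 (119.7), Psmb10 (95.7), Psmb9 (74.5) and Psme3 (22.8). No neighbours in that order overlapped between their libraries, and the closest were Psmb6 and Psmb5, whose group means were 211 and 208. In implanted PBS, Psmb8 led (533), ahead of Psme1 (385), whereas the libraries of Psme2 (267), Psmb9 (257), Psmb5 (239), Psmb6 (234) and Psmb10 (216) overlapped with those of their neighbours in the order. After cGAMP the first 3 genes were Psmb8, Psme1 and Psmb9 in both models, and in implanted tumours the libraries of Psmb10 and Psme2 overlapped, as did those of Psmb6 and Psmb5. Psme3 was lowest in all 4 groups, at 193 to 446 UMIs per library.

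**Figure D1:**
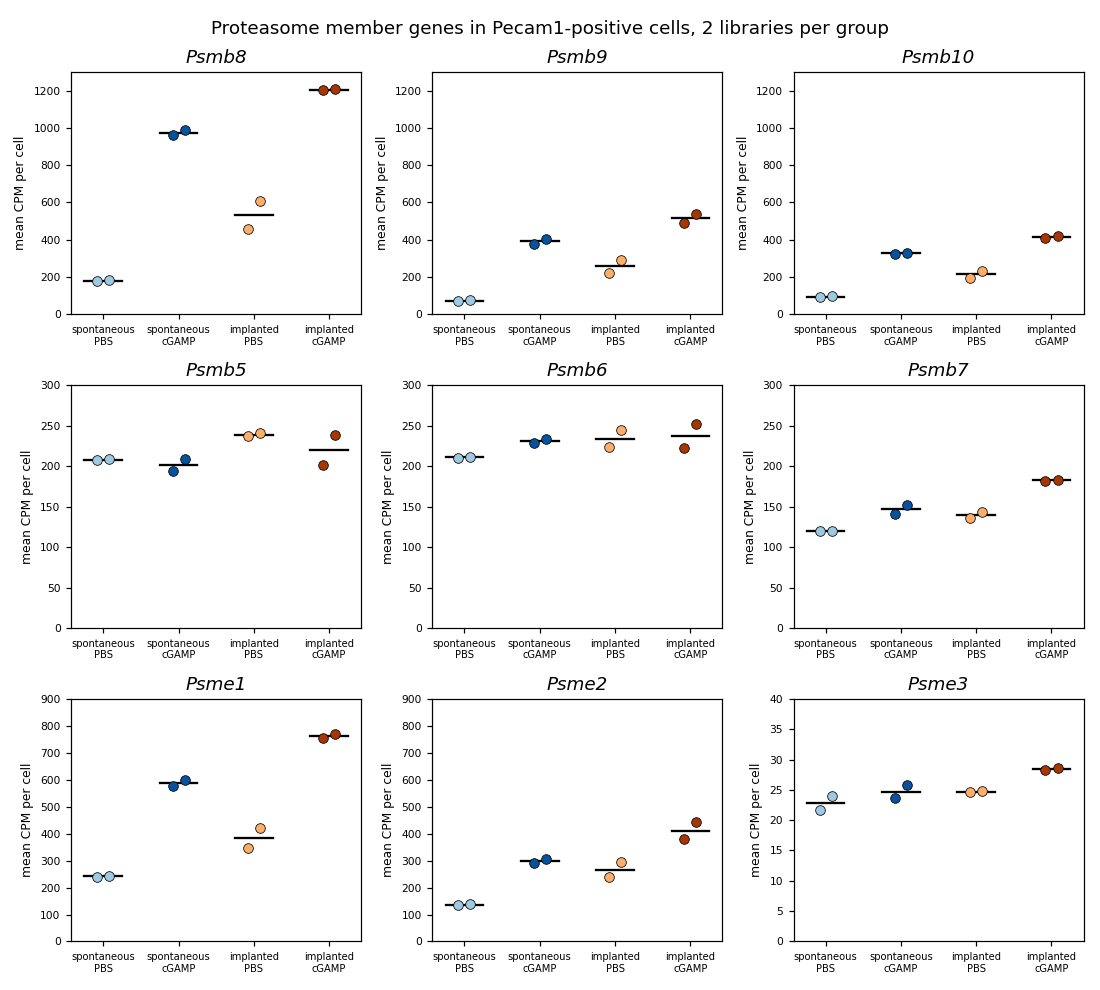
Mean CPM per cell (y axis, linear from 0, with 1 scale for the top row, 1 for the middle row, 1 for Psme1 and Psme2 and 1 for Psme3) of the 9 members in the 4 groups (x axis). Points are the 2 libraries of a group, drawn lower to higher, and lines are their mean. The immunoproteasome subunits in the top row separate all 4 groups, whereas the constitutive subunits in the middle row stay between 119.6 and 252 mean CPM.

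In spontaneous tumours cGAMP raised all 5 inducible members. Psmb8, the inducible chymotrypsin-like subunit, stood at 184 and 180.0 mean CPM in the PBS libraries and at 986 and 960.2 in the cGAMP libraries. This was a log2 change of 2.41 ± 0.11 (SE; 95% interval 2.16 to 2.67, limma adjusted p = 1.19e-06), or 5.33-fold, with no overlap between groups. Psmb9, the inducible caspase-like subunit, went from 71.7 and 77.4 to 378 and 406 mean CPM (log2 change 2.38 ± 0.12, adjusted p = 1.49e-06). Psmb10, the inducible trypsin-like subunit, went from 93.9 and 97.5 to 329 and 327 (1.77 ± 0.09, adjusted p = 1.49e-06). The log2 changes of the 2 activator subunits were smaller than those of the catalytic subunits, a difference between genes that was not tested. Psme1 was 244 and 239 mean CPM after PBS and 600.3 and 576 after cGAMP (log2 change 1.28 ± 0.09, adjusted p = 1.39e-05). Psme2 was 136 and 138 after PBS and 306 and 292 after cGAMP (1.12 ± 0.11, adjusted p = 0.000154). Thus 5 of 5 inducible members were called higher, where 5.09% of the 10424 genes tested were called higher and 7.59% lower. Under median-of-ratios scaling of the libraries 63.7% of all called genes were higher, against 40.2% here, and the median log2 change of all genes moved from -0.10 to -0.01, far less than the change of any inducible member.

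Of the 4 constitutive members 1 was called higher in the same comparison and none lower. Psmb5, the constitutive chymotrypsin-like subunit, was 208 and 209 mean CPM after PBS and 209 and 194 after cGAMP (log2 change -0.05 ± 0.09, 95% interval -0.25 to 0.16, adjusted p = 0.776), with overlapping libraries. Psmb6, the caspase-like subunit, was 211 in both PBS libraries and 233 and 228 after cGAMP (0.13 ± 0.08, interval -0.06 to 0.32, adjusted p = 0.339). Psme3 was 21.6 and 24.0 after PBS and 23.6 and 25.7 after cGAMP (0.11 ± 0.11, adjusted p = 0.569). Psmb7, the trypsin-like subunit, rose from 119.7 and 119.6 to 141 and 152 mean CPM (0.29 ± 0.08, adjusted p = 0.0372). Its call held in 11 of 20 alternative settings, and not every setting that lost it is listed here. It was lost without replicate 1 or 2 of spontaneous PBS (adjusted p = 0.137 and 0.130), replicate 1 or 2 of spontaneous cGAMP (0.0892 and 0.207) or either implanted PBS library (0.0558 for each), and without the cells that carried a marker of another cell type (0.0722).

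In implanted tumours cGAMP also raised all 5 inducible members. Psmb8 was 609.5 and 456 mean CPM in the PBS libraries and 1201 and 1210 in the cGAMP libraries, a log2 change of 1.19 ± 0.11 (95% interval 0.93 to 1.45, limma adjusted p = 0.000117) or 2.28-fold. Psmb9 went from 292 and 223 to 490 and 541 (1.01 ± 0.12, adjusted p = 0.000398), and Psmb10 from 235 and 197 to 421 and 411 (0.95 ± 0.09, adjusted p = 0.000107). The PBS libraries differed among themselves more here than in spontaneous tumours, with replicate 1 the higher in all 5 genes. Psme1 went from 422 and 348 to 770.4 and 755 mean CPM (0.99 ± 0.09, adjusted p = 8.96e-05). Psme2 went from 295 and 238 to 443 and 379 (0.63 ± 0.11, adjusted p = 0.00344). All 5 were called, where 8.60% of the tested genes were called higher and 16.4% lower (34.3% of calls higher, 51.5% under median-of-ratios scaling). In all 5 both cGAMP libraries lay above both PBS libraries, as they did for 21.5% of the tested genes here and for 18.8% in spontaneous tumours. The calls of all 5 in both models held in each of 20 alternative settings.

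Psmb7 rose in implanted tumours as well, from 137 and 144 to 182 and 183 mean CPM (log2 change 0.38 ± 0.08, limma adjusted p = 0.00612), and here its call held in all 20 alternatives. Psmb5 was 241 and 238 after PBS and 239 and 202 after cGAMP (-0.12 ± 0.09, interval -0.32 to 0.08, adjusted p = 0.363). Psmb6 was 223 and 245 after PBS and 252 and 223 after cGAMP (0.02 ± 0.08, interval -0.17 to 0.21, adjusted p = 0.886). Both overlapped between groups. Psme3 was 24.8 and 24.6 after PBS and 28.7 and 28.3 after cGAMP, with no overlap but without a call (0.20 ± 0.11, adjusted p = 0.245). The trypsin-like subunit was thus 1.22-fold higher after cGAMP in spontaneous and 1.30-fold higher in implanted tumours.

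**Figure D2:**
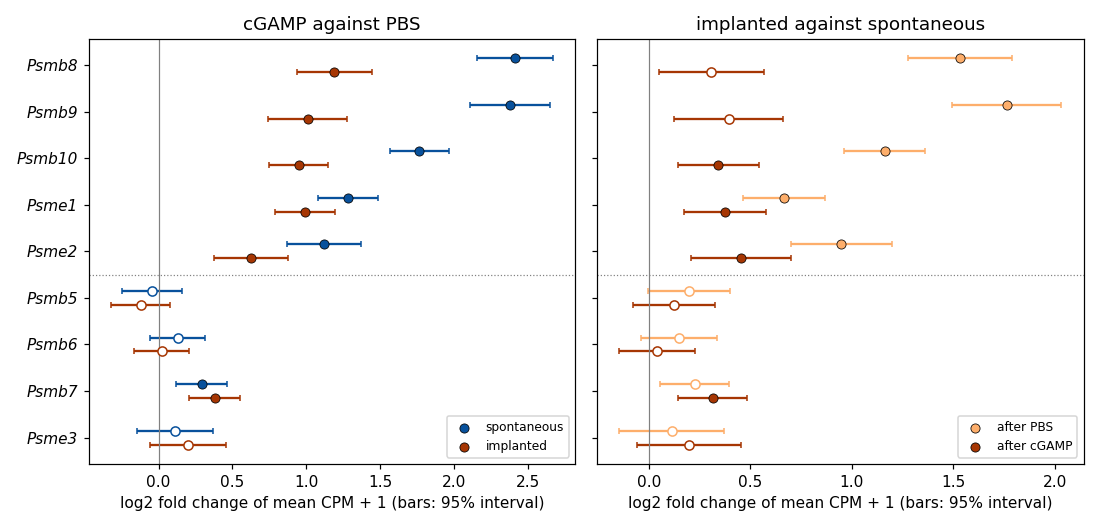
Log2 fold change of mean CPM + 1 (x axis) of each member (y axis), with 95% intervals from limma. Left, cGAMP against PBS in spontaneous and implanted tumours. Right, implanted against spontaneous tumours after PBS and after cGAMP. Filled points passed an adjusted p of 0.05 and open points did not. The 5 inducible members stand above the dotted line and to the right of 0, with the cGAMP response of Psmb8 at 2.41 in spontaneous and 1.19 in implanted tumours.

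The catalytic immunoproteasome subunits responded less in implanted than in spontaneous tumours. The difference of the log2 changes, implanted minus spontaneous, was -1.22 ± 0.16 for Psmb8 (limma adjusted p = 0.0214), -1.37 ± 0.17 for Psmb9 (adjusted p = 0.021) and -0.82 ± 0.13 for Psmb10 (adjusted p = 0.029). These were 3 of 9 members, where 0.460% of the tested genes had a called difference below 0 and 0.201% above. For the activators it was -0.29 ± 0.13 for Psme1 (adjusted p = 0.366) and -0.49 ± 0.16 for Psme2 (adjusted p = 0.227), and no constitutive member was called. The calls of Psmb8, Psmb9 and Psmb10 were lost without a filter on low values (adjusted p = 0.149, 0.148 and 0.149) and when any of the 4 spontaneous libraries was left out, up to 0.154, 0.154 and 0.192 without replicate 2 of spontaneous cGAMP. That of Psmb10 was also lost without replicate 1 of implanted PBS (0.0593). The estimates themselves lay between -1.56 and -0.69 under all alternatives.

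The models already differed after PBS. All 5 inducible members were called at a higher level in implanted PBS than in spontaneous PBS, where 3.39% of the tested genes were called higher and 4.44% lower (43.3% of calls higher, 64.2% under median-of-ratios scaling). The log2 difference was 1.76 ± 0.12 for Psmb9 (limma adjusted p = 0.000139), 1.53 ± 0.11 for Psmb8 (adjusted p = 0.000174), 1.16 ± 0.09 for Psmb10 (adjusted p = 0.000175), 0.95 ± 0.11 for Psme2 (adjusted p = 0.00123) and 0.66 ± 0.09 for Psme1 (adjusted p = 0.00267), and these calls held in all 20 alternatives. The PBS libraries enter this comparison and the cGAMP responses alike, so they are not independent of each other. The 4 constitutive members were higher in implanted PBS by 0.11 to 0.23 log2 units, without a call (adjusted p = 0.106 to 0.596). In all 9 members both implanted libraries lay above both spontaneous ones, as they did for 21.5% of the tested genes.

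After cGAMP the levels of the models were closer. Psmb8 was 960.2 to 986 mean CPM in spontaneous and 1201 to 1210 in implanted tumours, a log2 difference of 0.31 ± 0.11 that did not pass (limma adjusted p = 0.103), and Psmb9 differed by 0.39 ± 0.12 (adjusted p = 0.0583). Psmb10 (0.34 ± 0.09, adjusted p = 0.034), Psme1 (0.37 ± 0.09, adjusted p = 0.0264), Psme2 (0.45 ± 0.11, adjusted p = 0.0273) and Psmb7 (0.31 ± 0.08, adjusted p = 0.0269) were called higher in implanted tumours, where 5.23% of the tested genes were called higher and 8.53% lower (38.0% of calls higher, 57.5% under median-of-ratios scaling). None of these 4 calls held in every setting, and leaving out replicate 2 of the spontaneous cGAMP group gave adjusted p of 0.173, 0.166, 0.171 and 0.0900. Without replicate 1 of that group it was 0.128, 0.0924, 0.0948 and 0.148, and without replicate 1 of implanted cGAMP 0.0935, 0.0725, 0.105 and 0.0638. Without replicate 2 of implanted cGAMP Psmb10 (0.0574) and Psmb7 (0.0582) lost it, and Psmb10 also without replicate 1 or 2 of spontaneous PBS (0.0504 and 0.0503). Of 20 alternatives Psmb10 passed in 12, Psme1 in 16, Psme2 in 15 and Psmb7 in 14, so the losses listed above are not all of them. Psmb8 passed in 3 and Psmb9 in 6 of 20 alternatives, both of them when either implanted PBS library was left out.

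Psmb8, Psmb9 and Psmb10 made up 39.4% and 39.7% of the summed mean CPM of the 6 catalytic subunits in spontaneous PBS, 74.4% and 74.6% in spontaneous cGAMP, 65.4% and 58.3% in implanted PBS and 75.8% and 78.0% in implanted cGAMP. The 4 groups did not overlap, and the cGAMP groups of the 2 models lay within 4 percentage points of each other. Counted in UMIs the share ran from 37.0% of 9494 UMIs (95% Wilson interval 36.01 to 37.9) in replicate 1 of spontaneous PBS to 77.8% of 29054 UMIs (77.4 to 78.3) in replicate 2 of implanted cGAMP, where the interval covers counting error only. The summed constitutive subunits stood at 538 to 673 mean CPM in all libraries and the summed immunoproteasome subunits at 349 to 2161. No test was made of shares or ratios.

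The ratios of inducible to constitutive subunit differed between the 3 sites. At the chymotrypsin-like site the ratio of Psmb8 to Psmb5 was 0.883 and 0.863 in spontaneous PBS, 4.71 and 4.95 in spontaneous cGAMP, 2.53 and 1.92 in implanted PBS and 5.02 and 5.99 in implanted cGAMP. At the trypsin-like site Psmb10 to Psmb7 was 0.784 and 0.815, 2.33 and 2.14, 1.72 and 1.37, and 2.32 and 2.24 in the same order, so that the cGAMP libraries of the models overlapped. At the caspase-like site Psmb9 to Psmb6 was the lowest of the 3 ratios in 7 of the 8 libraries, the exception being replicate 2 of implanted cGAMP, at 0.340 and 0.366, 1.62 and 1.78, 1.31 and 0.910, and 1.94 and 2.42. Of the caps, Psme1 exceeded Psme3 by 9.97 to 11.3 times in spontaneous PBS and by 22.4 to 26.9 times after cGAMP in either model.

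Cells were also compared within libraries. To remove differences of depth, 10 UMIs of the 6 catalytic subunits were drawn from each cell that had at least 10. This left out 578 of 965 and 343 of 601 cells in spontaneous PBS, 117 of 670 and 129 of 693 in spontaneous cGAMP, 295 of 1000 and 342 of 1097 in implanted PBS, and 808 of 1529 and 108 of 604 in implanted cGAMP, so cells with low levels are under-represented most in spontaneous PBS and in the shallow library. A majority of immunoproteasome UMIs (6 or more of 10) was found in 18.6% and 20.5% of the cells in spontaneous PBS, 86.1% and 83.5% in spontaneous cGAMP, 64.0% and 49.9% in implanted PBS, and 90.7% and 90.9% in implanted cGAMP. Without drawing, the shares were 19.1% and 24.4%, 92.0% and 94.1%, 70.4% and 57.5%, and 96.3% and 97.6%. Induced subunits count towards the 10 UMIs that a cell needed, so the cells used differ between groups in this respect too, and free RNA in the droplets was not estimated. The implanted PBS cells were the most widely spread, with middle 80% ranges of the undrawn share of 29.0% to 84.4% and 24.5% to 78.5%.

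**Figure D3:**
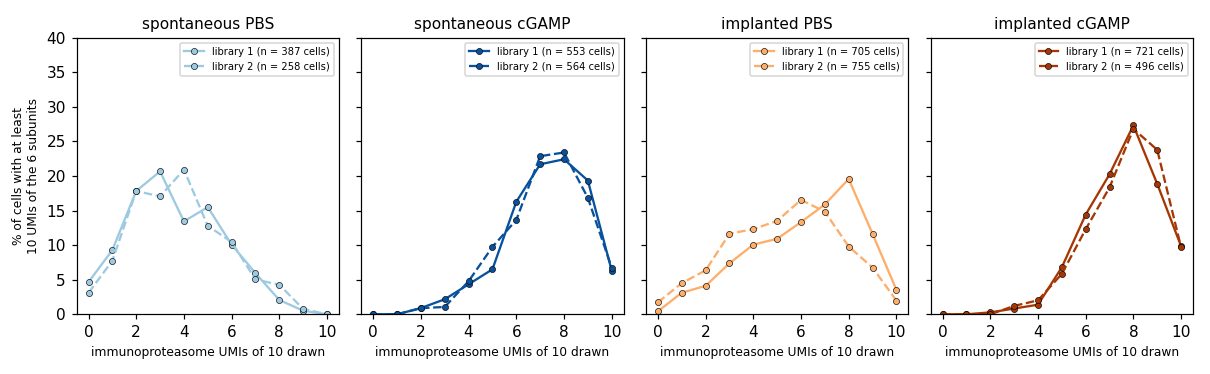
Share of cells (y axis, percent of cells with at least 10 UMIs of the 6 catalytic subunits) by the number of immunoproteasome UMIs among 10 drawn (x axis), for both libraries of each group (solid, replicate 1, and dashed, replicate 2). The median was 3 and 4 of 10 in spontaneous PBS, 7 and 7 in spontaneous cGAMP, 7 and 5 in implanted PBS and 8 and 8 in implanted cGAMP.

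Vessel types were set by markers. A Pecam1-positive cell was placed in the class of which it showed the most of 6 markers, at least 3. This gave 1349 arterial, 1991 stalk-like (venous), 628 tip-like, 195 AQP7+, 325 lymphatic and 224 proliferative cells, and 2447 cells (34.2%) had no class. The markers were Gja5, Bmx, Sema3g, Gja4, Stmn2 and Fbln5 for arterial cells, Ackr1, Selp, Vwf, Nr2f2, Lrg1 and Vcam1 for stalk-like cells, and Pgf, Adm, Apln, Esm1, Cxcr4 and Kcne3 for tip-like cells. The class names rest on these markers alone, so their expression in a class is no finding. Markers may themselves move with the treatment. The study lists Ackr1 among the genes that differed between PBS and cGAMP in ECs of another implanted tumour. It also found a larger share of SELP-positive ECs there after cGAMP. Cells of a class may thus be selected differently between groups. This bears on the comparisons within and between classes and was not tested. In AQP7+ and lymphatic cells, at 14 to 31 and 18 to 112 cells per library, levels were noisier than limma's common spread allows, so their values are given without a test. In implanted tumours they still enter the mean response of the other classes, against which the response of a class was set.

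The response to cGAMP was compared within arterial, stalk-like and tip-like cells. In arterial cells Psmb8 was 199 and 228 mean CPM in spontaneous PBS, 910.4 and 833 in spontaneous cGAMP, 462 and 355 in implanted PBS, and 1056 and 1076 in implanted cGAMP. In stalk-like cells it was 159 and 163, 1013 and 952, 806 and 551, and 1347 and 1295. In tip-like cells it was 158 and 172, 1045 and 1050, 494 and 355, and 1058 and 1106. In none of the 3 classes did cGAMP and PBS libraries of a model overlap. All 5 inducible members were called higher in each of these classes of spontaneous tumours, where 1.68% of the tested genes were called higher in arterial, 1.95% in stalk-like and 2.80% in tip-like cells. In implanted tumours 5 of 5 were called in arterial (1.61% of the tested genes) and in tip-like cells (4.21%) and 2 of 5, Psmb8 and Psme1, in stalk-like cells (1.46%). With weights per class, an alternative added after the data were seen, 30 of the 30 pairs of class, model and member passed, against 27 in the common fit and 18 without replicate 2 of implanted PBS. The difference of a class's response from that of the others did not pass for any inducible member in arterial, stalk-like or tip-like cells (limma, with the lowest adjusted p at 0.54 for Psmb9 in tip-like cells). AQP7+ cells ran from 242 and 298 mean CPM of Psmb8 to 1014 and 989.9 in spontaneous and from 701 and 733 to 1535 and 1480 in implanted tumours, and lymphatic cells from 392 and 153 to 1151 and 917 and from 701 and 560.0 to 1255 and 1183. Proliferative cells numbered 1 to 8 per library after cGAMP and were not compared.

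Levels were also compared between classes. Arterial, stalk-like and tip-like cells were each set against the mean of the others of these classes over the 4 groups. No member passed, where 23.6%, 17.5% and 23.2% of the tested genes passed in either direction. The contrasts of a gene draw on the same classes, so they are not independent of each other. Psmb10 came nearest, higher in stalk-like cells by 0.32 log2 units (limma adjusted p = 0.056), and 5 of the 27 pairs of class and member had an unadjusted p under 0.05. This count of 0 calls rose to 9 of 27 pairs with weights per class, to 8 with at least 40 cells per class and library, and to 6 and 4 with 4 or 2 markers required. With 2 markers required AQP7+ cells also entered the mean of the other classes. With weights, Psmb8, Psmb9, Psmb10, Psme1 and Psmb7 were higher in stalk-like cells by 0.13 to 0.32, and Psmb10, Psme1, Psmb5 and Psmb7 were lower in arterial cells, with log2 differences of -0.19 to -0.16. The immunoproteasome share in implanted PBS was 72.9% and 64.0% in stalk-like, 60.1% and 49.6% in tip-like, and 59.4% and 53.6% in arterial cells, the last 2 classes overlapping. In spontaneous PBS the order differed, with 42.2% and 45.8% in arterial, 38.7% and 39.8% in stalk-like and 33.4% and 30.5% in tip-like cells, while AQP7+ cells, from 14 and 29 cells, stood at 52.3% and 55.3%.

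**Figure D4:**
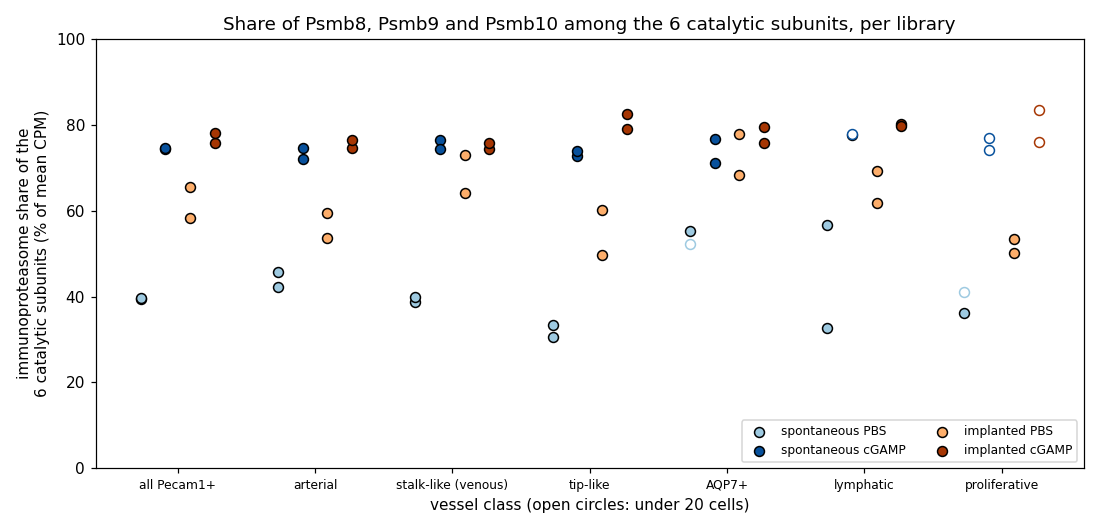
Share of Psmb8, Psmb9 and Psmb10 in the summed mean CPM of the 6 catalytic subunits (y axis, percent) in all Pecam1-positive cells and in each vessel class (x axis), 1 point per library and coloured by group. Open circles are classes with under 20 cells in that library. After cGAMP the points of arterial, stalk-like and tip-like cells lie between 72.1% and 82.5%.

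In tip-like cells of implanted tumours Psmb5 was lower after cGAMP. This pair of class and gene was picked after its values were seen, for its called difference from the other classes. Calls of the other constitutive members within classes are not listed. In the tip-like cells Psmb5 was 251 and 267 mean CPM after PBS and 171 and 132 after cGAMP, with no overlap. This was a log2 change of -0.78 ± 0.19 (limma adjusted p = 0.0071), where 5.85% of the tested genes were called lower in that class. In stalk-like cells Psmb5 was 221 and 220.5 after PBS and 314 and 275 after cGAMP, and in arterial cells 211 and 219 against 212 and 178. In AQP7+ cells it was 145 and 206 after PBS and 241 and 228 after cGAMP. In lymphatic cells it was 211 and 224 after PBS and 197 and 201 after cGAMP. The tip-like response minus the mean response of the arterial, stalk-like, AQP7+ and lymphatic classes was -0.92 ± 0.21 on the log2 scale (limma adjusted p = 0.016). Of the tested genes 1.93% had a called difference in that direction. The small AQP7+ and lymphatic classes thus form part of the reference. Both calls were kept under other marker thresholds and under weights per class, and both were lost without replicate 1 of implanted PBS (adjusted p = 0.0533 and 0.157), without its replicate 2 (0.130 and 0.215) and without replicate 2 of implanted cGAMP (0.155 and 0.149).

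Other proteasome genes changed by smaller amounts. Of 45 other proteasome genes, 43 were in the tables and 41 tested, and in spontaneous tumours 16 were called higher after cGAMP and 0 lower, with a median log2 change of 0.26 beside -0.10 for all tested genes, of which 5.09% were called higher and 7.59% lower. These were 5 of 11 other core subunits, 4 of 6 ATPases of the 19S cap, which unfold substrates, 5 of 13 other cap subunits and 2 of 11 assembly factors and regulators. Psma5 (0.53 ± 0.09, limma adjusted p = 0.00625) and Psma7 (0.50 ± 0.08, adjusted p = 0.00476), both of the outer rings of the core, and the cap ATPase Psmc2 (0.46 ± 0.08, adjusted p = 0.00575) changed most. In implanted tumours 15 were called higher and 1 lower (median 0.25, all genes -0.10, of which 8.60% were called higher and 16.4% lower). Nfe2l1, a transcription factor of proteasome genes, rose by 0.56 ± 0.11 (adjusted p = 0.00475), and the cap subunits Psmd14 and Psmd11 by 0.53 ± 0.09 and 0.52 ± 0.09 (adjusted p = 0.00222 and 0.00308). The assembly chaperone gene Psmg2 fell by 0.42 on the log2 scale (SE 0.13, adjusted p = 0.0432). Psmb7 at 0.29 and 0.38 lay within this range. After PBS 2 of the 41 were called higher in implanted tumours, the core subunit Psma2 (0.33) and the proteasome maturation gene Pomp (0.37), and after cGAMP 3 were, Pomp (0.25), the cap ATPase Psmc4 (0.26) and Psmd14 (0.36). These counts lie near the 3.39% and 5.23% of all tested genes called higher in these comparisons, and the genes were named after their values were seen. The thymus subunit Psmb11 and the testis subunit Psma8 were too low to be tested.

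Genes of peptide transport and class I loading rose alongside. In each cGAMP response 10 of 11 were called higher, beside 5.09% of all tested genes in spontaneous and 8.60% in implanted tumours. In spontaneous tumours the largest were Tap1, which shares its 5′ end with Psmb9 (2.93 ± 0.23, limma adjusted p = 3.17e-05), the class I light chain B2m (2.22 ± 0.12, adjusted p = 2.03e-06) and the heavy chain H2-K1 (2.18 ± 0.10, adjusted p = 1.05e-06). In implanted tumours they were the loading factor Tapbp (1.55 ± 0.13, adjusted p = 6.47e-05), B2m (1.46 ± 0.12) and H2-K1 (1.29 ± 0.10). Of 7 regulators of the interferon pathway 4 were called higher in spontaneous tumours, against the same shares of all genes, among them the class I transactivator Nlrc5 (3.397 ± 0.22, adjusted p = 8.14e-06) and Irf8 (1.005 ± 0.25, adjusted p = 0.0287). In implanted tumours 5 were called higher and 1 lower, among them Irf8 (1.46 ± 0.25, adjusted p = 0.00267) and Nlrc5 (1.14 ± 0.22, adjusted p = 0.00517). The called gene that fell was Ifngr1, a subunit of the interferon gamma receptor (-0.39, adjusted p = 0.00834), named after its value was seen. The response of Nlrc5, implanted minus spontaneous, was -2.25 (adjusted p = 0.0237), and that of H2-K1 was -0.89 (adjusted p = 0.0323). Nlrc5 averaged 1.71 CPM in spontaneous tumours after PBS, under the 5 CPM of the filter, and 27.4 CPM after cGAMP. For implanted tumours its averages were 16.9 CPM with PBS and 37.9 CPM with cGAMP. The spontaneous change of Nlrc5 and its difference thus rest on a level near the 1 CPM added before taking logs. No gene had a called difference when low genes were kept (0 by limma, 1945 at an unadjusted p under 0.05), and without replicate 1 or 2 of spontaneous cGAMP 3 and 2 genes had.

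Over the 8 libraries the log2 levels of the 5 inducible members correlated with each other at Pearson r of 0.96 to 0.998 and with Psmb7 at 0.88 to 0.92, as a description over points that share 4 groups. Psme3 correlated with them at 0.77 to 0.83, Psmb6 at 0.61 to 0.72 and Psmb5 at -0.01 to 0.25. Of the other tested genes, H2-Q7, a non-classical class I gene, Parp9, Zbp1, a sensor of Z-form nucleic acid, Apol10b and Gm4070 followed the mean log2 level of the inducible members most closely (r = 0.998 for the first, over 8 libraries). For the mean of the 4 constitutive members they were Lrrc59, G6pdx, the first enzyme of the pentose phosphate pathway, Akr1a1, Esd and Gtf2f1 (r = 0.975 for the first).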

How the data were processed

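Single-cell RNA of sorted tumour ECs was measured in 8 libraries of 4 groups. The submitters' processing notes name Cell Ranger 3.0.0, Seurat 3.1.1 and mm10. The strand setting of the counting is not given in the sources used here. Psmb8, Psmb9, Psmb10, Psme1 and Psmb7 each overlap a gene on the opposite strand. The protein-coding ones are Tap1 for Psmb9 (212 bases), Nek6 for Psmb7 (6571 bases) and Emc9 for Psme1 (14 bases). Whether these overlaps touched the counts of the members was not tested. The authors removed cells with few genes or a high mitochondrial share and deposited, for each gene and cell, the natural log of 1 plus UMIs scaled to a fixed total per cell. UMIs were recovered from the deposited natural-log values (100% whole within 0.01). No doublet caller was run.

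CPM were averaged per library over cells with at least 1 Pecam1 UMI, and a gene was tested where it reached 5 CPM in 2 libraries or more. Log2(mean CPM + 1) was fitted with limma 3.58.1 (R 4.3.3; group means over all 8 libraries, trended empirical Bayes), two-sided, with Benjamini-Hochberg adjustment over the 10424 genes and calls under 0.05. Fold changes are on this log2 scale, which understates those of low genes. Vessel classes were fitted likewise, with at least 20 cells per class and library and the library as a block. Intervals of shares are Wilson 95% intervals. Named beside the members were up to 3 called genes with the largest change per gene list and cGAMP response, and the 5 genes most correlated with each set of members. A gene that this rule names among the interferon pathway regulators is not reported here. The fit was tested on simulated data. The members and lists were chosen with earlier results of these data known.

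The replicate numbers were given in accession order. Deviations of same-numbered libraries correlated at -0.22, 0.13, -0.14 and -0.04 in the 4 pairs of groups. With 2 libraries per group such values cannot show whether libraries were handled in pairs. No source gives a pairing, and no block was used. Alternatives changed the pseudocount, filter, scaling, cells used, libraries fitted, block, class thresholds and libraries left out. The crossed block, the weights per class and the leaving out of libraries in the class fits were added after the data were seen.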

Additional observations from a re-analysis of the deposited data

Results flagged for a closer look

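The cGAMP responses of the models differed by a test of the difference itself for Psmb8 (log2 difference, implanted minus spontaneous, -1.22), Psmb9 (-1.37) and Psmb10 (-0.82), with limma adjusted p of 0.0214, 0.021 and 0.029. These calls held in 14, 14 and 13 of 19 alternatives and were lost without a filter on low values and when any of the 4 spontaneous libraries was left out. All 3 rose in both models, and all 3 were already higher in implanted tumours after PBS.

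Between vessel classes, the implanted response of Psmb5 in tip-like cells differed from the mean of the other classes by -0.92 (limma adjusted p = 0.016), a call lost without either implanted PBS library or replicate 2 of implanted cGAMP (0.157, 0.215 and 0.149). That of Psmb6 in AQP7+ cells differed by 0.71 in the fit with a common spread, which understates the noise of this small class, and did not pass with weights per class (adjusted p = 0.41).

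Cells without a Pecam1 UMI, which above enter only the alternative with all deposited cells, were fitted by themselves. They numbered 50 to 496 per library, with a median of 1105 to 2383 UMIs. In spontaneous tumours their log2 change after cGAMP was 2.13 ± 0.26 (SE) for Psmb8 (limma adjusted p = 0.000273), 1.66 ± 0.32 for Psmb9 (adjusted p = 0.0201) and 1.93 ± 0.42 for Psmb10 (adjusted p = 0.0442), where 0.609% of 11487 genes tested were called higher. Psme1 (0.95, adjusted p = 0.376) and Psme2 (1.15, adjusted p = 0.196) did not pass, nor did a constitutive member. In implanted tumours, where 0.531% of the genes were called higher, the values of Psmb8, Psmb9 and Psmb10 were 0.99, 1.03 and 0.66, and no member passed. The identity of these cells was not tested.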

How the results depend on the processing

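The counts of called genes, 1322 for cGAMP in spontaneous and 2609 in implanted tumours, 69 for the difference of the responses, 816 between models after PBS and 1434 after cGAMP, depended on the setting. Without a filter on low values they were 812 in spontaneous tumours, 0 for the difference (limma, with 1945 genes at an unadjusted p under 0.05), 327 after PBS and 784 after cGAMP. With UMIs summed per library they were 2839 in spontaneous tumours, 112 for the difference and 1317 after PBS, and with all deposited cells 43 for the difference. Leaving out 1 library gave 448 to 1808 in spontaneous and 1265 to 2495 in implanted tumours, 2 to 171 for the difference, 212 to 1234 after PBS and 156 to 1447 after cGAMP. The cause was not tested.

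The replicate numbers are not known to pair the libraries. With the replicate block the counts were 1230, 2524, 58, 741 and 1362 and no call of a member changed. With the numbers of spontaneous cGAMP crossed they were 1221, 2565, 78, 789 and 1387.

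The log2 changes that turned sign were small and not called. Psmb5 in spontaneous tumours became 0.046 with median-of-ratios scaling and 0.012 with summed UMIs, and ranged from -0.10 to 0.0078 with 1 library left out. In implanted tumours Psmb5 became 0.0064 with summed UMIs and 0.047 in cells with at least 2000 UMIs. Psmb6 there became -0.025 with all deposited cells and ranged from -0.068 to 0.11 with 1 library left out. Psme3 in spontaneous tumours became -0.00079 with all deposited cells. For the difference, Psmb7 became -0.036 with summed UMIs, Psme3 -0.00026 without marker-bearing cells, and Psmb5 0.12 with at least 2000 UMIs and between -0.20 and 0.046 with 1 library left out. Between models after cGAMP, Psmb6 ranged from -0.048 to 0.13 with 1 library left out.

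In spontaneous PBS the log2 ratio of Psmb10 to Psmb7 moved to -0.48 with summed UMIs and -0.45 with at least 2000 UMIs, and those of Psme1 and Psme2 to Psme3 to 3.22 and 2.41 with summed UMIs. Of 27 pairs of class and member, 0 were called, against 4, 6, 8 and 9 with 2 markers, 4 markers, 40 cells and weights, and 0 to 2 without 1 library.

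Each group had 2 libraries, so the spread rests on few values. Depth was lowest in replicate 1 of implanted cGAMP, and Psme3, with 193 to 446 UMIs per library, was measured least precisely.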
